A study of Mus musculus with 4 samples.

Results

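Transcripts of 10 growth factor genes were examined in immune cells of the adipose tissue (AT) of lean and obese mice: the 3 transforming growth factor beta genes Tgfb1, Tgfb2 and Tgfb3, the platelet-derived growth factor genes Pdgfa, Pdgfb and Pdgfc, the EGF family ligand gene Hbegf, the growth differentiation factor genes Gdf3 and Gdf15, and the vascular endothelial growth factor gene Vegfb. They were chosen by gene name, with earlier results of these data known, and all 10 were found among the 35869 genes measured. The mice were male WT C57BL/6 animals that received either a normal diet (ND) or a high-fat diet (HFD) for 12 weeks from 8 weeks of age, with no other allele or agent in either group. CD45+ cells were taken from epididymal white AT (eWAT) with magnetic beads, and RNA-seq was run on 2 samples per diet. The number of mice behind each sample is not given in the sources used here, so the spread between samples may be technical. The level of a gene is given in transcripts per 1000000 (TPM), a share of the RNA of a sample per unit of gene length. The depth was estimated at about 37600000 and 44500000 reads for ND and 46900000 and 41100000 reads for HFD.

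The 3 TGF-beta proteins are secreted in a latent form, held by a propeptide that binds storage proteins of the matrix or the cell surface, and are freed by integrins, proteases or thrombospondin before they bind a pair of receptor kinases that phosphorylate SMAD proteins. GDF3 and GDF15 are distant relatives in the same superfamily. GDF15 is a stress-induced hormone that acts through GFRAL and RET in the hindbrain. PDGF-A, -B and -C are growth factors for fibroblasts and mural cells, and PDGF-C must be cut by plasmin or tissue plasminogen activator to become active. HB-EGF is made as a membrane protein, is shed by metalloproteases and binds EGFR and ERBB4. VEGF-B binds FLT1 and neuropilin-1 and is known for roles in the handling of fatty acids. In obese AT, macrophages gather around dying adipocytes, and growth factors of these families are studied there for their part in fibrosis and vessel growth.

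Of the 10 growth factor genes, Gdf3, Pdgfa, Pdgfb and Gdf15 were higher in HFD, Hbegf was lower, and Tgfb1, Tgfb2, Tgfb3, Pdgfc and Vegfb did not pass the test. A differentially expressed gene (DEG) had a Benjamini-Hochberg adjusted p under 0.05 in limma, over the 16849 genes with at least 1 TPM in at least 2 samples, and a change of at least 1.5-fold on the log2(TPM + 1) scale. All 10 growth factor genes were tested. Of all genes tested, 18.4% were DEGs, 8.08% in the direction of higher values in HFD and 10.3% in the direction of lower values, and against these the growth factors had 5 DEGs of 10, 4 higher and 1 lower. Since the 10 genes were chosen with earlier results of these data known, this comparison of shares is description only. In 8 of the 10 genes the HFD values did not overlap the ND values, which was also so for 66.9% of all genes tested. The median log2 fold change was 0.33 over the 10 genes and 0.06 over all genes tested. With 2 samples against 2, the exact two-sided permutation test cannot go below p = 0.333, the value it gave for each of the 8 genes whose groups did not overlap, so the calls rest on limma, which shares the spread between genes. When either ND sample was left out, limma called 0 of the 16849 genes, and 5 (without ND replicate 1) or 4 (without ND replicate 2) of the growth factors had an unadjusted p under 0.05 with a change of at least 1.5-fold.

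**Figure D1:**
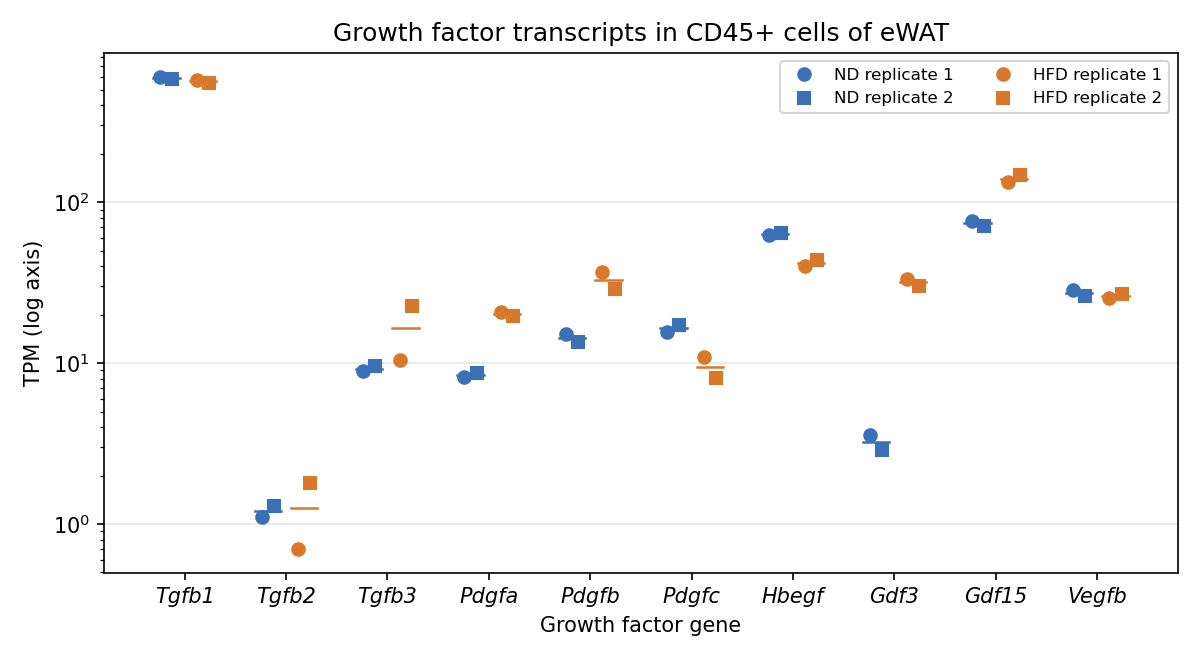
TPM of each growth factor gene (log axis) in the 2 ND samples (blue) and the 2 HFD samples (orange), with circles for replicate 1, squares for replicate 2 and a line at each group mean. Tgfb1 lay between 551.2 and 602.5 TPM in all 4 samples, while Gdf3 went from 2.9 and 3.6 TPM on ND up to 30.2 and 33.4 on HFD.

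The samples carried RNA of several cell types, and some of it moved with the diet. Ptprc, which encodes CD45, was at 53.7 to 59.4 TPM in the 4 samples. The summed TPM of 6 macrophage markers was 9364 and 9150 in ND and 8794 and 9435 in HFD. Most of it came from Lyz2, at 7827 and 7618 TPM on ND, against 6506 and 7125 on HFD. Of the 6 markers, 2 were DEGs with higher values and 0 with lower values. Cd68 was at 873.7 and 847.9 TPM on ND, against 1554 and 1574 on HFD. Csf1r had lower values, at 313.9 and 312.4 TPM on ND, against 217.4 and 206.8 on HFD. Of the markers assigned to macrophage types, 6 of 6 for lipid-associated macrophages were DEGs with higher values in HFD, beside 8.08% of all genes tested. Their summed TPM was 1025 and 1073 in ND and 7793 and 8165 in HFD. For resident macrophages, 5 of 5 were DEGs with lower values, beside 10.3% of all genes tested. Their sums were 2615 and 2642 in ND and 618 and 443 in HFD. The cells that carried these transcripts were not resolved. Of 7 fibroblast markers, which a CD45+ preparation should lack, 5 were DEGs with higher values in HFD, and their summed TPM was 610.7 and 655.2 on ND, against 3052 (replicate 1) and 6107 (replicate 2) on HFD, and all 7 were higher in replicate 2 of HFD than in its replicate 1. The summed TPM of 5 mast cell markers was 1550 and 1566 on ND, against 376.3 and 479.4 on HFD, that of 5 T cell markers was 120.5 and 129 on ND, against 14.4 and 27.9 on HFD, and that of 6 endothelial markers was 453.7 and 455.9 on ND, against 543.3 and 604.6 on HFD. Sums were also lower in HFD for 5 markers of epididymal epithelium (121.1 and 125 on ND, against 11.1 and 25.2 on HFD), 6 platelet markers (1862 and 1813, against 776.9 and 766.9) and 6 mural cell markers (348.9 and 367.4, against 236.1 and 216.8). Nearly all of the platelet sum was Pf4, at 1841 and 1791 TPM on ND, against 763.5 and 750.6 on HFD. Among the platelet markers, 1 was a DEG with higher values and 2 with lower values. The mural cell markers were also split, with 1 higher and 3 lower DEGs. The summed TPM of 6 spermatid markers was 1854 and 1875 in ND and 2126 in HFD replicate 2, but 6960 in HFD replicate 1. Between the HFD samples 11.5% of genes differed by at least 2-fold, as compared to 1.04% between the ND samples. The part of these cell types in the results on the growth factors was not tested. In such bulk samples fewer cells of a type and less RNA per cell cannot be told apart.

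**Figure D2:**
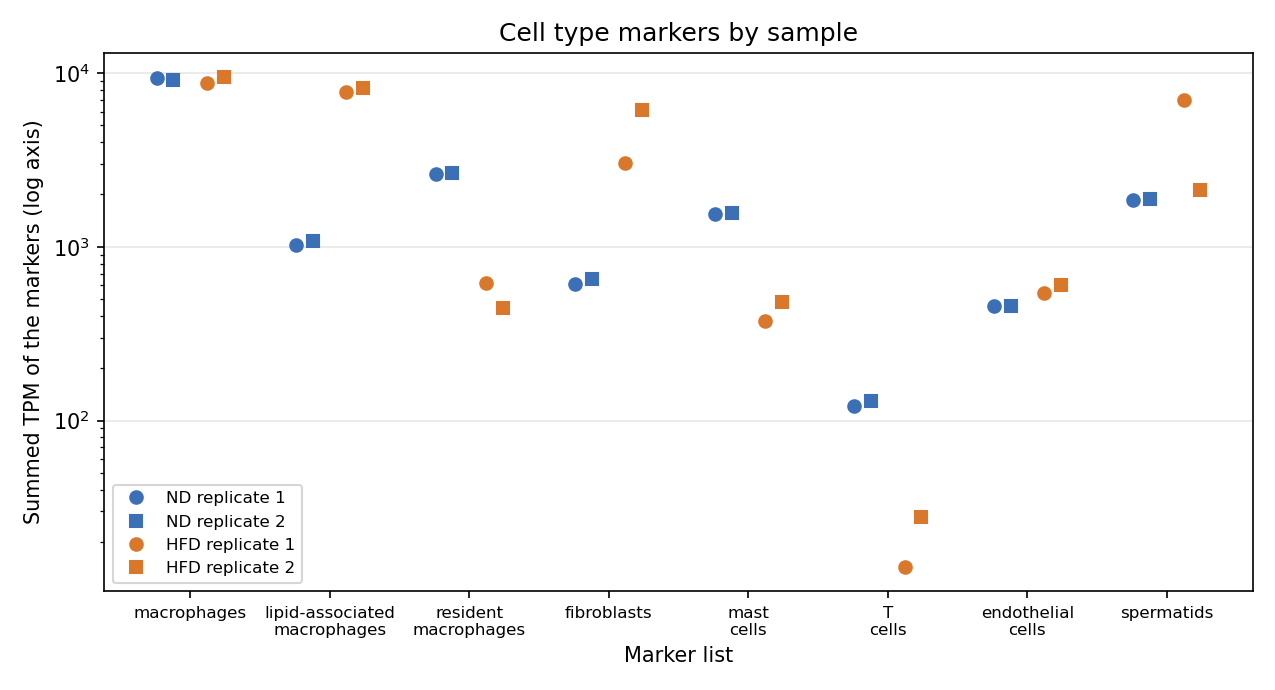
Summed TPM of the marker genes of 8 cell types (log axis) in the 2 ND samples (blue) and the 2 HFD samples (orange), with circles for replicate 1 and squares for replicate 2. The macrophage sum, most of it from Lyz2, stayed between 8794 and 9435. The lipid-associated macrophage sum was 7793 and 8165 in HFD, and fibroblast and spermatid sums differed between the HFD samples.

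Gdf3 had the largest change of the 10 genes. It lies on mouse chromosome 6, chr6:122605403-122610087 in mm10 on the minus strand, and no other GENCODE gene overlaps it. Its level was 3.6 and 2.9 TPM on ND, against 33.4 and 30.2 TPM on HFD. Both HFD values were far above both ND values, and the mean of 31.8 ± 2.26 TPM (SD, n = 2) was 9.79-fold that of 3.25 ± 0.495 TPM in ND (SD, n = 2). The log2 fold change was 2.95 with a standard error of 0.13 and an adjusted p of 0.00500 in limma, and Gdf3 ranked 61 among the DEGs in order of increase. About 124 and 116 reads stood behind the ND values and 1310 and 1029 behind the HFD values. Gdf3 encodes a ligand that can signal through activin receptors, and it moved with the lipid-associated macrophage markers given above, whose part in the result was not tested. The genes with the pattern most like that of Gdf3, by Euclidean distance of centred log2(TPM + 1) over the 4 samples, were Mir23b (distance 0.080), a microRNA gene, Hspb7 (0.116), a small heat shock protein gene, and Pkp2 (0.124), a desmosome gene. Hspb7 was at 4.6 and 4.2 TPM on ND, against 44.1 and 37.2 on HFD, Pkp2 at 2.6 and 2.1 TPM on ND, against 23.5 and 23.3 on HFD. The values of Mir23b rested on about 4 and 4 reads in ND and 41 and 33 in HFD, so its distance has a large counting error.

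Gdf15, in contrast, was already high in ND. The gene lies at chr8:70629393-70632456 in mm10 on the minus strand and overlaps no other GENCODE gene. It was at 76.7 and 71.3 TPM on ND, against 133.1 and 147.1 on HFD. The HFD mean of 140.1 ± 9.90 TPM (SD, n = 2) was 1.89-fold the ND mean of 74.0 ± 3.82 TPM (SD, n = 2), without overlap of the groups. The log2 fold change was 0.91 with a standard error of 0.08 (limma, adjusted p = 0.0108). Of the receptors, Gfral was listed at 0 TPM in all 4 samples, and Ret, the kinase that GFRAL uses, was lower in HFD, at 3.9 and 3.9 TPM on ND, against 1.4 and 1.4 on HFD (log2 fold change -1.03, limma, adjusted p = 0.0113), a call lost with a pseudocount of 5 (-0.48).

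Of the PDGF ligand genes, Pdgfa and Pdgfb rose and Pdgfc had lower values that did not pass the test. Pdgfa (chr5:138976014-138997370, minus strand) was at 8.2 and 8.7 TPM on ND, against 20.7 and 19.5 on HFD. The groups stood well apart, the means of 8.45 ± 0.354 and 20.1 ± 0.849 TPM (SD, n = 2 each) differed 2.38-fold, and the log2 fold change was 1.16 with a standard error of 0.08 (limma, adjusted p = 0.00761). Pdgfb (chr15:79995874-80014977, minus strand) was at 15.1 and 13.6 TPM on ND, against 36.8 and 29.0 on HFD. Its groups did not overlap either, although its HFD samples differed more, with means of 14.4 ± 1.06 and 32.9 ± 5.52 TPM (SD, n = 2 each). Its log2 fold change was 1.14 with a standard error of 0.15 (limma, adjusted p = 0.0212), a call lost without the filter (limma, adjusted p = 0.0510). Pdgfc (chr3:81036416-81214040, plus strand) went the other way, from 15.6 and 17.3 TPM on ND down to 10.9 and 8.1 on HFD. The mean of Pdgfc was 42.2% lower in HFD, and its log2 fold change of -0.74 (standard error 0.17, 95% interval -1.25 to -0.23) missed the threshold with an adjusted p of 0.0583 in limma. Under 4 of the alternatives Pdgfc was a DEG with lower values, and its adjusted p ranged from 0.0166 to 0.309 over all of them. Pdgfd, the remaining PDGF gene, stayed low at 2.4 and 2.8 TPM on ND, against 2.9 and 3.2 on HFD (log2 fold change 0.17, limma, adjusted p = 0.358).

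The summed TPM of Pdgfa, Pdgfb and Pdgfc was 38.9 and 39.6 in ND and 68.4 and 56.6 in HFD, with the HFD mean 1.59-fold the ND mean. Pdgfc made up 40.1% and 43.7% of this sum in ND and was the largest component of both samples. In HFD its share was 15.9% and 14.3%, the smallest of the 3 in both samples. The share of Pdgfb was 38.8% and 34.3% in ND and 53.8% and 51.2% in HFD, and that of Pdgfa was 21.1% and 22.0% in ND and 30.3% and 34.5% in HFD. For each of these shares the groups did not overlap, and the exact permutation test gave p = 0.333, the smallest value it can give. These 3 tests make up 1 family, and their adjusted p was also 0.333.

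**Figure D3:**
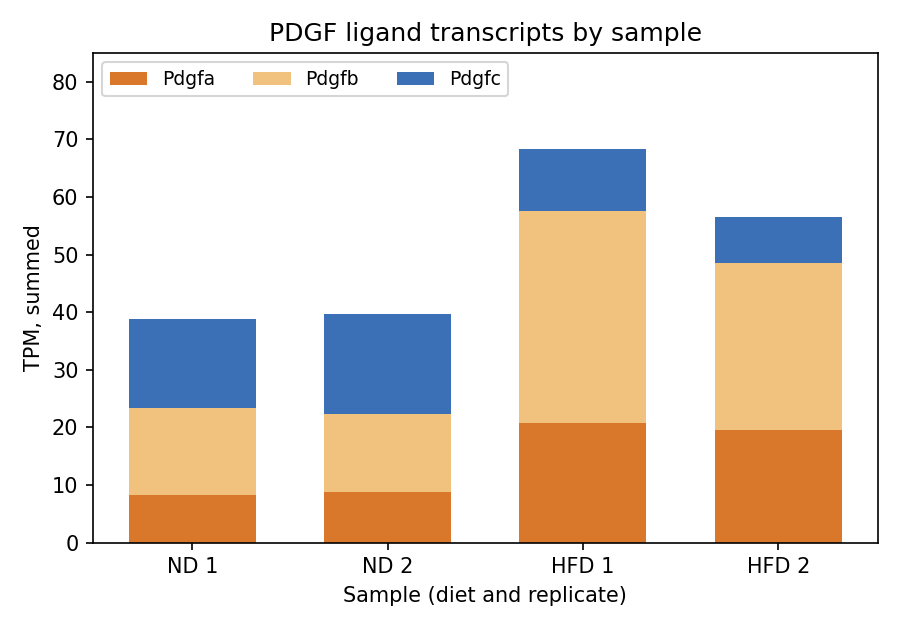
TPM of Pdgfa (dark orange), Pdgfb (light orange) and Pdgfc (blue), stacked from 0, in each of the 4 samples. The columns reach 38.9 and 39.6 TPM on ND, against 68.4 and 56.6 on HFD, and the Pdgfc part is the largest in ND and the smallest in HFD.

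On the receptor side of the PDGF genes, both receptor genes had higher values in HFD but only Pdgfrb was a DEG. Pdgfrb, which encodes a receptor of PDGF-B, was at 12.7 and 13.4 TPM on ND, against 26.7 and 37.4 on HFD (log2 fold change 1.22, limma, adjusted p = 0.0291). This call was lost without the filter (limma, adjusted p = 0.0627). Pdgfra, which encodes the receptor bound by PDGF-A and PDGF-C, was at 1.8 and 2.2 TPM on ND, against 5.4 and 11.0 on HFD (log2 fold change 1.55, limma, adjusted p = 0.0618). Plau, the urokinase gene, was a DEG and rose from 99.6 and 105.4 TPM to 311.3 and 279.2 TPM (log2 fold change 1.52, limma, adjusted p = 0.00567). Plat, the tissue plasminogen activator gene and outside the rule for named genes, was at 21.2 and 24.3 TPM on ND, against 56 and 112.8 on HFD, and did not pass (log2 fold change 1.76, limma, adjusted p = 0.0551). Of the 6 tested genes of PDGF receptors and processing, 2 were higher, 0 were lower and 4 did not pass, beside 8.08% higher and 10.3% lower over all genes tested. Their median log2 fold change was 1.44 as compared to 0.06 over all genes. Pdgfra, Pdgfrb and Plat were 2.04-fold, 1.40-fold and 2.01-fold higher in replicate 2 of HFD than in its replicate 1. This was also the direction of the fibroblast markers. The mural cell sum was lower in HFD, but its markers held 1 higher and 3 lower DEGs. Of these markers, Cspg4 was at 3.4 and 3.7 TPM on ND, against 13.3 and 15.7 on HFD. The part of fibroblasts or mural cells here was not tested.

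Promoter sequences were compared for genes of different behaviour, shown for a high and steady gene (Tgfb1), a gene that rose (Gdf15) and a gene with lower values (Pdgfc). RefSeq promoters of GRCm38.p6 were matched for 6 of the 10 genes, namely Tgfb1, Tgfb2, Pdgfa, Pdgfc, Gdf15 and Vegfb, and the 250 bases before each start were searched on both strands for TGANTCA (letters bound by AP-1), CACGTG (E-box), GGGCGG (GC box), CAGAC (SMAD-binding letters) and TGATGNAA (ATF4-type letters, added after the values had been seen). Each is printed 5′ to 3′ on the strand of the gene, with matches in capitals and no overlap between matches of different letters.
Tgfb1, chr7:25686752-25687001, plus strand: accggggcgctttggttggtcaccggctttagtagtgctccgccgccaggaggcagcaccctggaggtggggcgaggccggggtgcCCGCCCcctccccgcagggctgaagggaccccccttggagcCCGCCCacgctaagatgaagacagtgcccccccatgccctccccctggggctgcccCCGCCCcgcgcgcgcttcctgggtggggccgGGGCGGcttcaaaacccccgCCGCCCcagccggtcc
Gdf15, chr8:70632457-70632706, minus strand: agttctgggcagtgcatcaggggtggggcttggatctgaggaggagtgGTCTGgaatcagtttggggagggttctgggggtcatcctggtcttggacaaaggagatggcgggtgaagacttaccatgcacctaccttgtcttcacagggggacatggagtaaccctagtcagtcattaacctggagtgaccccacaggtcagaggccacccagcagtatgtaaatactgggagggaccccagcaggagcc
Pdgfc, chr3:81036166-81036415, plus strand: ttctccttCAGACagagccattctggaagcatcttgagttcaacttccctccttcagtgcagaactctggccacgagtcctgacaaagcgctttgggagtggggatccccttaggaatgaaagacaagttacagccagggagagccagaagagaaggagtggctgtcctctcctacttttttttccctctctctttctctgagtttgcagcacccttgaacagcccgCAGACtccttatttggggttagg
The Tgfb1 window held GGGCGG in 5 places, which 32.7% of the 32817 promoters held at least once, and 75.2% of its bases were G or C as compared to a median of 52.4% over all promoters. Vegfb held GGGCGG in 4 places, with 76.4% G or C. The printed Gdf15 window held CAGAC once, beginning 202 bases before the start, the window before its inner start held it once as well, and Pdgfc and Tgfb2 held it in 2 places each, letters that 42.2% of all promoters hold. In the windows of Pdgfa, not printed since they run into exons of longer transcripts, GGGCGG was found at both starts, once at one and in 2 places at the other. TGANTCA, held by 6.75% of all promoters, and TGATGNAA, held by 3.45%, were in none of the 8 windows searched for the 6 genes. CACGTG, held by 6.02%, was found once in the Tgfb2 window and once before the inner of the 2 starts of Gdf15. Such matches are letters only and say nothing of binding.

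Hbegf was the only growth factor gene of the 10 that was a DEG with lower values in HFD. Its level was 62.8 and 64.1 TPM on ND, against 39.9 and 43.4 on HFD. The groups did not overlap, the means of 63.5 ± 0.919 and 41.7 ± 2.48 TPM (SD, n = 2 each) differed by 34.4%, and the log2 fold change was -0.60 with a standard error of 0.06 (limma, adjusted p = 0.0151). At 1.51-fold on the log2(TPM + 1) scale it was just past the limit of 1.5-fold, and with a pseudocount of 5 (log2 fold change -0.55) or without HFD replicate 1 (-0.54) it was no longer a DEG. Its gene lies at chr18:36504927-36515805 in mm10 on the minus strand. The genes with the most similar pattern were Grb7 (distance 0.025), Tmem173 (0.027) and Mylip (0.030), by the same measure as above. Grb7 was at only 1.2 and 1.2 TPM on ND, against 0.4 and 0.5 on HFD, deposited with 1 decimal, and its log2 fold change ran from -1.25 to -0.19 with the pseudocount. Tmem173, which encodes the innate immune adaptor STING, was at 32.5 and 33.7 TPM on ND, against 20.9 and 22.9 on HFD.

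The other genes of the EGF family moved in both directions. Of 14 tested ligands, receptors and sheddases, 3 were higher, 4 were lower and 7 did not pass, beside 8.08% higher and 10.3% lower over all genes tested. The 4 lower genes were all ligand genes: Areg (200.4 and 204.4 TPM on ND, against 72.9 and 80.7 on HFD, log2 fold change -1.39, limma, adjusted p = 0.00555), Nrg2 and, outside the rule for named genes, Btc and Tgfa, each of the latter 3 at 3.4 TPM or less in all samples and no longer a DEG with a pseudocount of 5. The 3 higher genes act on the release or presentation of ligands. Cd9, a tetraspanin gene whose protein associates with membrane HB-EGF and which is also one of the lipid-associated macrophage markers, rose from 167.3 and 171.1 TPM to 843.3 and 910.1 TPM (log2 fold change 2.37, limma, adjusted p = 0.00378). Adam12, a sheddase gene, was at 2.2 and 2.1 TPM on ND, against 12.8 and 29.6 on HFD (log2 fold change 2.71, limma, adjusted p = 0.0318). It was 2.31-fold higher in replicate 2 of HFD, the direction of the fibroblast markers, whose part was not tested. Adam17, the sheddase of several EGF family ligands and named here since the count is small, was at 20.1 and 21.7 TPM on ND, against 35.7 and 38.1 on HFD (log2 fold change 0.79, limma, adjusted p = 0.0121). Egfr itself was at 20 and 23.3 TPM on ND, against 15.6 and 29.3 on HFD, where the HFD samples lay on both sides of ND, and Erbb4 was listed at 0 TPM in all samples.

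Tgfb1 was the most abundant of the 10 genes in every sample and changed little. Its level was 602.5 and 580.0 TPM on ND, against 573.0 and 551.2 on HFD, and its HFD mean lay above those of 98.3% of the genes tested. The HFD values were just below the ND values. The log2 fold change was -0.07 with a 95% interval of -0.20 to 0.06 (limma, adjusted p = 0.298), an interval that holds no change of 1.5-fold. Tgfb1 (chr7:25687002-25705077, plus strand) made up 98.4% and 98.2% of the TPM of the 3 TGF-beta genes in ND and 98.1% and 95.8% in HFD.

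Tgfb3 (chr12:86056745-86079041, minus strand) was the growth factor gene whose HFD samples differed most on the log2(TPM + 1) scale. It was at 8.9 and 9.6 TPM on ND, while the HFD replicates had 10.4 TPM (replicate 1) and 22.6 TPM (replicate 2). The first HFD value was close to ND and the other was 2.17-fold higher, a difference in log2(TPM + 1) of 1.05. Counted with its sign, this difference was above that of 99.1% of genes, of which the central 95% lay between -1.87 and 0.71, and in either direction 11.5% of genes differed by at least 2-fold between these samples. The fibroblast markers were 2-fold higher in sum in the same sample. Other sums were higher there too, among them epididymal epithelium (2.27-fold), T cells (1.94-fold), erythroid cells (1.73-fold) and mesothelial cells (1.58-fold). Those of spermatids, adipocytes and resident macrophages were lower. The part of these cell types in the Tgfb3 value was not tested. Over all samples the log2 fold change was 0.68 with a standard error of 0.41 (limma, adjusted p = 0.308). Without HFD replicate 1 it was 1.2 and without HFD replicate 2 it was 0.15, each resting on 1 HFD sample. Over the alternatives that kept all samples, the adjusted p of Tgfb3 in limma ranged from 0.2629 to 0.4615. Tgfb2 (chr1:186622792-186705989, minus strand) was low, at 1.1 and 1.3 TPM on ND, against 0.7 and 1.8 on HFD, which is about 91, 124, 66 and 147 reads. Its groups overlapped, and the log2 fold change of -0.01 had a 95% interval of -0.90 to 0.88, an interval that holds changes of 1.5-fold in either direction.

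Among the TGF-beta receptor genes, only Tgfbr1 of the 5 tested was a DEG, a share near the 18.4% of all genes tested that were DEGs. Tgfbr1, which encodes the signalling kinase, rose from 8.0 and 9.1 TPM to 32.0 and 29.7 TPM (log2 fold change 1.74, limma, adjusted p = 0.00615). Tgfbr2, which encodes the ligand-binding kinase, was the most abundant of the receptor genes, at 156.0 and 163.1 TPM on ND, against 105.2 and 112.6 on HFD. Its log2 fold change of -0.55 had an adjusted p of 0.0146 in limma but stayed under 1.5-fold, which it passed under each of 3 other scalings and without HFD replicate 2. Tgfbr3, the betaglycan gene, was at 29.0 and 31.6 TPM on ND, against 41.9 and 59.4 on HFD (log2 fold change 0.70, limma, adjusted p = 0.0880).

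Genes that store or activate latent TGF-beta held 4 higher DEGs, 0 lower and 8 that did not pass among 12 tested. Over all genes tested, 8.08% were higher and 10.3% lower. The median log2 fold change of the list was 1.04 as compared to 0.06 over all genes. Itgav, the integrin alpha V gene, was at 11.6 and 13.2 TPM on ND, against 45.2 and 48.2 on HFD (log2 fold change 1.83, limma, adjusted p = 0.00561). Fbn1, the fibrillin gene, was at 8.2 and 9.1 TPM on ND, against 35.2 and 68.7 on HFD (log2 fold change 2.38, limma, adjusted p = 0.0286). Ltbp3, a latent TGF-beta binding protein gene, was at 4.5 and 4.6 TPM on ND, against 11.5 and 14.8 on HFD (log2 fold change 1.34, limma, adjusted p = 0.0160). The surface anchors of latent TGF-beta had opposite signs, and their calls depended on the setting. Lrrc32 (GARP) was at 14.1 and 14.3 TPM on ND, against 23.6 and 30.8 on HFD (log2 fold change 0.88, limma, adjusted p = 0.0347), while Nrros, the anchor of macrophages and microglia, was at 101.1 and 101.2 TPM on ND, against 69.3 and 67.7 on HFD (log2 fold change -0.56, limma, adjusted p = 0.00896), under 1.5-fold. Lrrc32 was no longer a DEG under median-ratio scaling, quantile normalization or no filter (adjusted p in limma 0.0242 to 0.253 over the alternatives), and Nrros was a DEG with lower values under each of the 3 other scalings (0.00548 to 0.167). Ltbp1 and Itgb8 were at 2.3 TPM or less in every sample. Thbs1, the thrombospondin gene and the most abundant of the list, was at 117.1 and 127.4 TPM on ND, against 192.9 (replicate 1) and 409.4 (replicate 2) on HFD (log2 fold change 1.2, limma, adjusted p = 0.129). Its log2 fold change was 0.655 to 1.737 when a sample was left out. Fbn1, like Thbs1, was higher in replicate 2 of HFD, as were the fibroblast markers, whose part was not tested.

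Of 11 tested SMAD genes and regulators, 10 did not pass and only Bambi, a decoy receptor gene, was a DEG. Over all genes tested, 18.4% were DEGs and 10.3% were lower DEGs. Bambi was at 11.7 and 12.4 TPM on ND, against 6.6 and 6.6 on HFD (log2 fold change -0.78, limma, adjusted p = 0.0130), a call lost with a pseudocount of 5 (-0.56). Ski, a repressor of SMADs, was the most abundant of them at 93.3 and 94.4 TPM on ND, against 78.8 and 74.6 on HFD (log2 fold change -0.29, limma, adjusted p = 0.0344). Smad3, which encodes a direct effector of the TGF-beta receptors and is outside the rule for named genes, was at 14.5 and 15.2 TPM on ND, against 9 and 10.4 on HFD. Its log2 fold change of -0.57 (limma, adjusted p = 0.0353) was at 1.48-fold just under the limit, and Smad3 was a DEG with a pseudocount of 0.1, with rescaling without the 50 highest genes and without HFD replicate 2 (adjusted p in limma 0.0269 to 0.237 over the alternatives). Of the 5 TGF-beta target genes reported here, 0 were higher, 2 were lower and 3 did not pass, beside 8.08% higher and 10.3% lower over all genes tested. The list is not complete, so its count and median do not give a direction of the target genes. Tgfbi, which encodes a matrix protein, fell from 1194 and 1189 TPM to 473.2 and 519.8 TPM (log2 fold change -1.26, limma, adjusted p = 0.00537). Fn1, the fibronectin gene, was at 133.6 and 139.1 TPM on ND, against 66.1 and 88.6 on HFD (log2 fold change -0.82, limma, adjusted p = 0.0461, with a range of 0.0278 to 0.280 over the alternatives). Ctgf, which encodes a matricellular protein and is outside the rule for named genes, had higher values in HFD, at 27.3 and 29.4 TPM on ND, against 42.4 and 78.6 on HFD, and did not pass (log2 fold change 1.0, limma, adjusted p = 0.122, with a range of 0.0349 to 0.444 over the alternatives, where it was a DEG without HFD replicate 1). It was 1.85-fold higher in replicate 2 of HFD, the direction of the fibroblast markers, whose part was not tested.

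Vegfb (chr19:6982473-6987651, minus strand) was at a similar level in both diets. It was at 28.5 and 26.3 TPM on ND, against 25.2 and 26.9 on HFD, with overlapping groups, a log2 fold change of -0.07 and a 95% interval of -0.29 to 0.16 (limma, adjusted p = 0.549). Vegfa, the ligand gene of vessel growth, rose from 7.3 and 7.4 TPM to 20.8 and 26.9 TPM (log2 fold change 1.56, limma, adjusted p = 0.0127), so that the level of Vegfa came near that of Vegfb in HFD. Pgf, the placental growth factor gene, rose from 1.0 and 1.2 TPM to 3.4 and 3.4 TPM (log2 fold change 1.07, limma, adjusted p = 0.0136), a call lost with a pseudocount of 5 (0.46). The lymphatic ligand genes, outside the rule for named genes, did not pass. Vegfc was at 15.5 and 13.9 TPM on ND, against 9.6 and 10.7 on HFD (log2 fold change -0.49, limma, adjusted p = 0.0475, under 1.5-fold), and Vegfd at 1.6 and 1.8 TPM on ND, against 3.8 and 7.4 on HFD (log2 fold change 1.23, limma, adjusted p = 0.0754). The receptor genes of VEGF-B did not pass: Flt1 was at 14.3 and 15.7 TPM on ND, against 15.4 and 17.6 on HFD, and Nrp1 at 79.0 and 87.2 TPM on ND, against 91.9 and 88.3 on HFD. Of the 9 genes of this family tested, 2 were higher, 0 were lower and 7 did not pass, a share near the 18.4% of all genes tested that were DEGs.

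**Figure D4:**
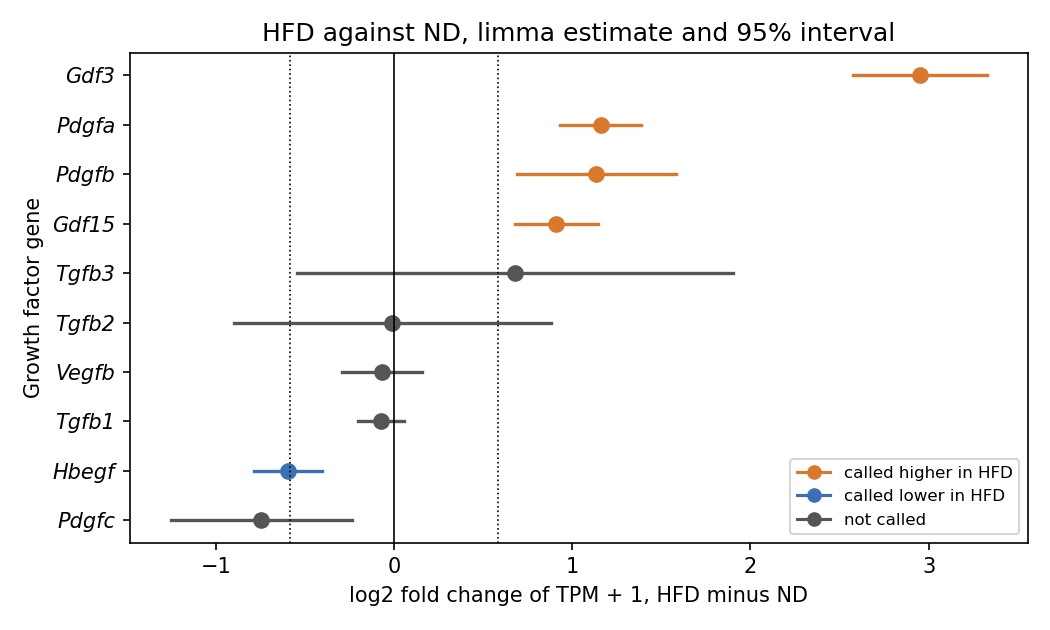
The limma log2 fold change of TPM + 1 (HFD minus ND) of each growth factor gene with its 95% interval, where dotted lines mark 1.5-fold. Gdf3 lies at 2.95, Pdgfa, Pdgfb and Gdf15 lie between 0.91 and 1.16, Hbegf lies at -0.60, and the widest intervals are those of Tgfb3 and Tgfb2.

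Other ligands of the GDF, BMP and activin families were mostly low, with 12 of 28 listed genes passing the filter. Of these 12, 1 was higher, 2 were lower and 9 did not pass, beside 8.08% higher and 10.3% lower over all genes tested. Their median log2 fold change was -0.40 as compared to 0.06 over all genes. Bmp2 fell from 62.4 and 66.6 TPM to 22.3 and 12.3 TPM (log2 fold change -1.89, limma, adjusted p = 0.0323), and Bmp7 from 7.2 and 7.5 TPM to 1.2 and 0.8 TPM (log2 fold change -2.07, limma, adjusted p = 0.00820). Inhbb, which encodes the beta B subunit of activin, rose from 9.2 and 8.7 TPM to 21.6 and 39.0 TPM (log2 fold change 1.6, limma, adjusted p = 0.0464). Inhbb kept this call under only 5 of the 13 alternatives, with an adjusted p of 0.0285 to 0.280 in limma over them, and it was 1.81-fold higher in replicate 2 of HFD, the direction of the fibroblast markers, whose part was not tested. Of the 7 receptor genes tested, Ret was the only DEG. The activin receptor genes Acvr1b (26.6 and 27 TPM on ND, against 35.2 and 35.9 on HFD) and Acvr2a (9.6 and 10.1 TPM on ND, against 13.5 and 13.8 on HFD) had higher values in HFD by less than 1.5-fold. Acvr2b was at 1.5 TPM or less in every sample, and Acvr1c was listed at 0 TPM in all samples. None of the 4 antagonist genes tested was a DEG or had an unadjusted p under 0.05 in limma, and Nbl1 was the most abundant of them at 16.0 and 16.9 TPM on ND, against 21.3 and 36.7 on HFD (limma, adjusted p = 0.167). Over all 10 lists around the growth factors, 13 genes were higher, 10 were lower and 62 did not pass among the 85 tested, beside 8.08% higher, 10.3% lower and 18.4% in all over the genes tested.

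**Figure D5:**
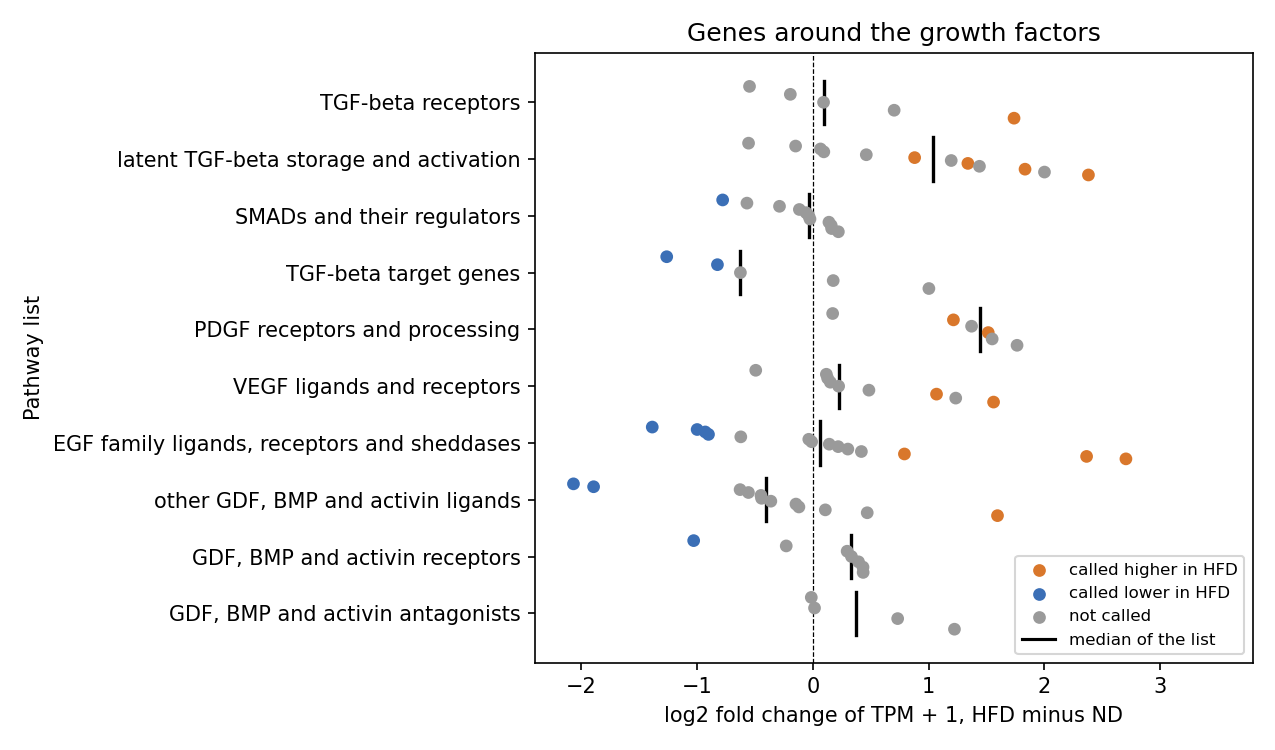
The log2 fold change of TPM + 1 (HFD minus ND) of each gene tested in 10 lists around the growth factors, with higher DEGs in orange, lower DEGs in blue, other genes in gray and a line at the median of each list. The medians of the PDGF receptor and latent TGF-beta lists are 1.44 and 1.04, and those of the SMAD and target gene lists are -0.03 and -0.63, the last over an incomplete list of 5 genes.

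The order of the levels changed between the diets. In ND it ran, from high to low, through Tgfb1, Gdf15, Hbegf, Vegfb, Pdgfc, Pdgfb, Tgfb3, Pdgfa, Gdf3 and Tgfb2, and the samples of no neighbours in this order overlapped. In HFD it ran through Tgfb1, Gdf15, Hbegf, Pdgfb, Gdf3, Vegfb, Pdgfa, Tgfb3, Pdgfc and Tgfb2. There the values of Gdf3 lay within those of Pdgfb, and those of Tgfb3 spanned Pdgfa and overlapped Pdgfc, so that these neighbours did not differ beyond their spread. Gdf3 thus stood next to last in ND and above Vegfb in HFD, and Pdgfc stood above Pdgfb and Pdgfa in ND and below both in HFD.

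Some of the genes share sequence with antisense genes in GENCODE. Of Pdgfa, 813 exon bases are shared with the antisense gene 6330403L08Rik, and smaller stretches of Pdgfc (147 bases), Tgfb2 (124 bases) and Tgfb3 (257 and 163 bases) lie opposite other genes. The libraries kept the strand, but whether the counting used it is not given in the sources used here. Mir7213, a microRNA gene inside Pdgfb on the same strand that shares no exon bases with it, was listed at 0 TPM in both ND samples and at 5.4 and 3.7 TPM in HFD, which is about 5 and 3 reads.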

How the data were processed

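RNA-seq was performed on CD45+ cells of eWAT from 2 ND and 2 HFD samples. The authors trimmed reads with Trim Galore 0.4.2 and cutadapt 1.9.1, aligned them to mm10 with STAR 2.6.1e, removed duplicates, counted reads per gene with featureCounts 1.6.2 (versions from the submitters' processing notes) and deposited TPM per gene and sample, with 1 decimal. TPM are shares, so a gene can fall because others rose. Duplicate removal caps very abundant or short transcripts.

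Values were compared as log2(TPM + 1) with limma 3.58.1 in R 4.3.3 (lmFit, eBayes with a variance trend) over 16849 genes, a fold change being on that scale, which understates changes of low genes. TPM are not counts, so no count test was run. The steps were tested on simulated data. Depth was estimated from the smallest steps of microRNA genes (0.0607 to 0.0711 TPM for 1 read per kb) with GENCODE vM21 exon lengths and is approximate. Gene positions are from GENCODE vM21 and promoters from RefSeq GRCm38.p6.

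The growth factors and the 10 pathway and 17 marker lists were chosen with earlier results of these data known. One gene of the TGF-beta target list is not reported here and was left out of the list counts. Named genes were the growth factors, up to 4 DEGs with the largest change and the most abundant gene per pathway list, the direct receptors and latency partners, and the 3 genes nearest to the most increased and most decreased growth factor. Marker lists not described were used for no result. Alternatives were pseudocounts of 0.1 and 5, no filter, a mean TPM of at least 5, a block for the replicate number, scaling by median ratios, by quantiles or after removal of the 50 highest genes, eBayes without the trend, a limit of 2-fold or none, and leaving out each sample.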

Additional observations from a re-analysis of the deposited data

How the results depend on the processing

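The 10 growth factor genes had 5 DEGs, and this count was 4 to 6 under the other pseudocounts, filters, variance model and scalings. It was 3 with a limit of 2-fold, and 0 to 5 when each sample was left out, with 0 without either ND sample (5 and 4 at an unadjusted p under 0.05 with at least 1.5-fold in limma). Without an ND sample the spread comes from the HFD pair alone, and the lone ND sample is assumed to vary like it. Without an HFD sample the spread comes from the ND pair alone, which differed less, and the lone HFD sample is assumed to vary like that pair. Over all genes the 3098 DEGs became 2015 with a pseudocount of 5, 1604 with a limit of 2-fold and 0 to 4241 when a sample was left out (0 without either ND sample, with 2748 and 2809 at an unadjusted p under 0.05 with at least 1.5-fold in limma). The share of DEGs with higher values was 44.0%, and 44.7% to 62.7% when an HFD sample was left out, the latter without HFD replicate 2. The 23 DEGs of the pathway lists became 15 without the filter and 0 to 36 when a sample was left out (0 without either ND sample, with 16 and 16 at such a p with at least 1.5-fold in limma). Pdgfc became a DEG with a mean TPM of at least 5, median-ratio scaling, quantile normalization and rescaling without the 50 highest genes. Without the filter Pdgfb (adjusted p = 0.0510 in limma), Pdgfrb, Fbn1, Lrrc32, Fn1, Adam12, Tgfa, Bmp2 and Inhbb lost their calls. With a pseudocount of 5 Hbegf, Bambi, Btc, Tgfa, Nrg2, Pgf, Ret, Inhbb and Grb7 lost theirs. The sign of Tgfb2 turned with a pseudocount of 5 (0.0062) and quantile normalization (0.1377), and its log2 fold change was -0.3705 to 0.3494 when a sample was left out. The sign of Egfr turned when ND replicate 2 or HFD replicate 1 was left out (-0.4445 to 0.4236) and that of Nrp1 with quantile normalization (-0.0027). Over 60 named genes and the settings that kept all samples without a block, 416 values kept direction and call, 26 lost the call, 22 gained it and 3 turned, and with a sample left out 153 kept both, 67 lost the call, 16 gained it and 4 turned. The causes were not tested.

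The replicate numbers were not shown to pair the samples, since the deviations of same-numbered samples from their group means had a correlation of -0.015 over 16849 genes. With the replicate number as a block, 1 growth factor (Gdf3), 6 pathway genes and 812 of all genes were DEGs.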
